A study of Homo sapiens with 6 samples.

Results

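Clustered histone genes are the intronless or short genes in 4 genomic clusters that encode the linker histone H1 and the core histones H2A, H2B, H3 and H4. They were taken as the rows of the count table whose symbols begin with HIST1H, HIST2H, HIST3H or HIST4H, the older names that number the cluster before the histone class. Of 29804 rows, 73 carried such a symbol, and the 11 with at least 60 counts summed over the 6 libraries were the members. Of the other 62 rows, 42 held between 1 and 59 counts in all and 20 held none. The members just inside the minimum were HIST1H1B with 64 counts and HIST1H2AG with 67, and the rows just outside were HIST1H4C with 53 and HIST1H4D with 50. The minimum uses the sum over all libraries, and all 11 members also passed the filter on low counts applied before testing. Near the minimum, a row can still pass through the group in which it is high. HIST1H1B had 28 of its counts in the first AM library, and HIST1H2AG had 18 and 12 of its counts in 6WP.

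The cells were 22Rv1, an established human prostate carcinoma epithelial line, all of the parental genotype and grown in serum-supplemented RPMI. WT cells were harvested untreated at week 0, AM (age-matched) cells after 6 weeks of untreated culture, and 6WP cells after 6 weeks in which phleomycin was added at 1 µg/ml on each weekday. Phleomycin is a radiomimetic glycopeptide that breaks DNA strands. Each group had 2 libraries, labelled as biological replicates, of 100-base single-end RNA sequencing. A difference between 6WP and WT carries both the time in culture and the drug, which only the comparison with AM separates.

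Most clustered histone mRNAs are made in S phase, when new DNA must be packaged, and they differ from other mRNAs in that they end at a conserved stem-loop instead of a poly(A) tail. Stem-loop binding protein (SLBP) and the U7 small nuclear ribonucleoprotein direct the cut just after this hairpin, and NPAT switches on transcription of the clusters at the start of S phase. Some histone genes also have longer, polyadenylated forms that run past the hairpin, and these are the ones known in cells that have left the cycle. In a bulk sample, fewer cells in S phase and less histone mRNA per cell cannot be told apart. Whether the libraries were made by poly(A) selection or by removal of ribosomal RNA is not given in the sources used here, so the values below measure whichever histone transcripts that step retained.

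The stem-loops are shown because they are the common end of the family and because members differ in whether annotated transcripts stop there. Symbols were matched through RefSeq to GENCODE v44 models on GRCh38 for 68 of the 73 rows. A hairpin with the published histone stem-loop consensus lay within 120 bases after the stop codon in 65 of 65 histone rows with an annotated stop codon, against 72 of 19917 genes (0.361%) in the annotation as a whole. The 65 rows include 10 of the 11 members, and the remaining member, HIST2H2BC, is annotated as a transcribed pseudogene without a stop codon. The sequences are in the 3′ UTR and are written 5′ to 3′ on the coding strand, with the arms that pair in capitals and the loop in lower case.
HIST3H2A, chr1:228457369-228457384, minus strand: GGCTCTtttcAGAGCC
HIST1H2BK, chr6:27146366-27146381, minus strand: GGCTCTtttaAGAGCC
HIST2H2AC, chr1:149887391-149887406, plus strand: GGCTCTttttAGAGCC
HIST1H2AG, chr6:27133515-27133530, plus strand: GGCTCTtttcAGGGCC
HIST1H4C, chr6:26104317-26104332, plus strand: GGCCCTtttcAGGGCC
The hairpin printed for HIST3H2A was shared by 6 members (HIST1H1B, HIST1H1C, HIST1H2AC, HIST1H3H, HIST2H2BE and HIST3H2A) and by 38 rows in all, and that of HIST1H2BK by HIST1H2BD. The form of HIST1H4C, with a C-G pair in place of a U-A pair in the stem, stood for 10 rows, all of class H4. All 15 H4 rows had these arms, with 3 forms of the loop, and no member had them.

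Of the 65 rows with a hairpin, 16 had a GENCODE or RefSeq transcript that runs more than 100 bases past it (here called extended), and 49 were annotated to end at it. The extended rows held 5240 counts with a median of 36.5 per row, and 6 of 16 (37.5%) reached the minimum. The rows ending at the hairpin held 1640 counts with a median of 13, and 4 of 49 (8.16%) reached it. The extended members were HIST1H2AC, HIST1H2BD, HIST1H2BK, HIST1H3H, HIST2H2BE and HIST3H2A, and those ending at the hairpin were HIST1H1B, HIST1H1C, HIST1H2AG and HIST2H2AC. Of the extended members, only HIST1H2BD and HIST2H2BE were extended in both sources. HIST1H2AC, HIST1H3H and HIST3H2A were extended in GENCODE only, and HIST1H2BK in RefSeq only. This division by annotated ends was made after the counts per row had been seen, and no test is given for it.

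The 5 classes contributed unequally. Class H2B gave 4216 of the 7138 histone counts from 20 rows with 4 members, and class H2A gave 1800 counts from 18 rows with 4 members. Class H1 gave 603 counts from 6 rows with 2 members, class H3 gave 283 counts from 14 rows with 1 member, and class H4 gave 236 counts from 15 rows with no member. Thus H3 and H4, which pair in the nucleosome in the same number as H2A and H2B, were represented by the fewest counts per row. HIST1H2BK, HIST2H2BE and HIST3H2A alone held 4507 counts, 63.1% of those of all histone rows. Multimapping affects the rows to unlike degrees. Among the members, 100-base windows of the annotated exons occurred once in the genome for 22.5% of HIST2H2BC and 77.5% of HIST1H2BK. The value was 87.3% for HIST2H2AC, 97.4% for HIST2H2BE and 100% for every other member. It was also 100% for rows under the minimum such as HIST1H4C, and for rows at 0 such as HIST1H1A. Of 19 rows at 0 with annotated exons, 6 (HIST2H2AA3, HIST2H2AA4, HIST2H3A, HIST2H3C, HIST2H4A and HIST2H4B) had no window that occurred once, and reads from near-identical copies such as these cannot be assigned to a gene.

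Library totals ran from 21222201 to 35311945 counts, so that 3 counts, the most that a count of 0 allows, came to 0.0883 to 0.138 CPM (counts scaled to the library size, here after normalization by the trimmed mean of M values, TMM). The 10 prostate epithelial markers checked were all tested, with a summed level of 1934 to 3455 CPM per library, and of 9 markers of fibroblasts, leukocytes and endothelium, 6 were too low to test, 2 of them at 0, with a summed level of 1.97 to 4.56 CPM. The 6WP libraries differed more from each other than did the replicates of the other groups. Between replicates, the chi-square per gene was 63.9 in 6WP, 5.67 in WT and 9.14 in AM over all genes, and 15.7, 2.96 and 3.94 over the 11 members. Intervals given for counts cover counting error only, and with 2 libraries against 2 an exact permutation test of a single value cannot go below p = 0.333.

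**Figure D1:**
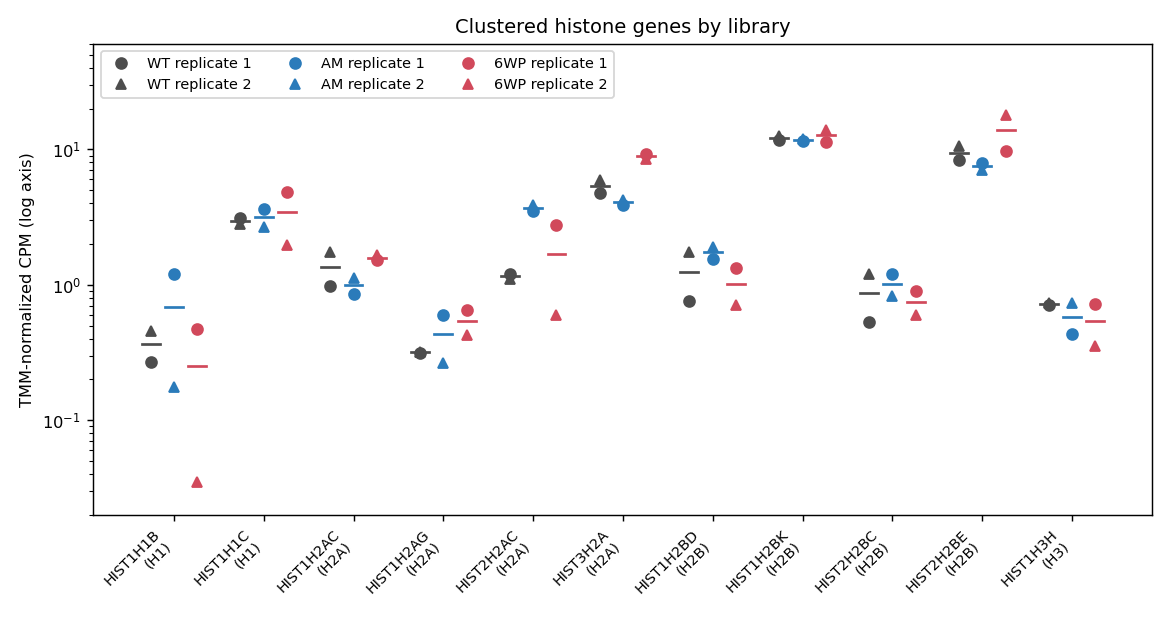
TMM-normalized CPM (log axis) of the 11 histone members in each of the 6 libraries, coloured by group with circles for the first and triangles for the second replicate, bars at the group means, and members ordered by class along the x axis. HIST1H2BK, HIST2H2BE and HIST3H2A lie at the top, and the 6WP points lie farthest apart for HIST1H1B (13.3 times) and HIST2H2AC (4.65 times).

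The summed level of the 11 members was 32.6 and 39.2 CPM in WT, 36.4 and 34.8 CPM in AM, and 43.6 and 46.8 CPM in 6WP. Both 6WP libraries were above all 4 controls, while WT and AM overlapped. This sum follows the 3 most abundant members, and the genes did not move together, as the values per gene show.

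HIST3H2A encodes an H2A protein and is the member of the small cluster on the long arm of chromosome 1 (current symbol H2AC25, chr1:228434777-228457873, minus strand). Its annotated forms reach 22592 bases past the hairpin in GENCODE but only 5 in RefSeq. Its level was 4.73 and 5.97 CPM in WT, 3.88 and 4.24 CPM in AM, and 9.29 and 8.46 CPM in 6WP, from 90 to 257 counts per library. Both 6WP libraries were above all controls, and both AM libraries were below both WT libraries. HIST3H2A rose in 6WP relative to AM by 1.13 on the log2 scale (SE 0.20), with an adjusted p of 0.00948 in edgeR's quasi-likelihood test. Leaving out either AM library, which leaves AM without a replicate, ended this call. The log2 fold change was 1.06 without the first and 1.20 without the second. Relative to WT the log2 fold change was 0.73 (SE 0.20) and the adjusted p over all genes was 0.0869 in edgeR. AM against WT gave −0.40 (SE 0.20, adjusted p = 0.206, edgeR). The 2 libraries of 6WP differed by only 1.10 times, the smallest ratio between 6WP replicates among the members apart from HIST1H2AC at 1.09 times.

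HIST2H2BE encodes an H2B protein and is an extended member (current symbol H2BC21, chr1:149884459-149886682, minus strand), with 1729 bases annotated past the hairpin. Its level was 8.30 and 10.6 CPM in WT, 7.92 and 7.04 CPM in AM, and 9.73 and 18.0 CPM in 6WP. The first 6WP library lay between the WT libraries and the second above every other library, and AM lay below both other groups. By edgeR, the log2 fold change was 0.89 (SE 0.29, adjusted p = 0.0591) for 6WP against AM, 0.55 (SE 0.29, adjusted p = 0.297) for 6WP against WT and −0.34 (SE 0.29, adjusted p = 0.432) for AM against WT. Without the second 6WP library the values were 0.35 against AM and 0.02 against WT, and without the first they were 1.27 and 0.91. Each such fit leaves 6WP without a replicate, so only the sizes are given. The size of the difference therefore depended on 1 library.

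HIST1H2BK, which encodes another H2B protein (current symbol H2BC12, chr6:27146361-27146855, minus strand), had the highest mean level of the family over the 6 libraries, also per kilobase of annotated exon (24.6 CPM per kilobase, against 4.62 for HIST2H2BE and 3.30 for HIST3H2A). Its level was 11.7 and 12.5 CPM in WT, 11.6 and 11.9 CPM in AM, and 11.4 and 14.0 CPM in 6WP. The groups overlapped in every comparison, and the log2 fold changes were 0.07 for 6WP against WT, 0.11 for 6WP against AM and −0.04 for AM against WT, each with an SE of 0.16. It was the member measured with the smallest error. In the second 6WP library HIST2H2BE, at 18.0 CPM, was above it. RefSeq gives this gene a form that runs 8073 bases past the hairpin and GENCODE does not, so that the length used here fits only the short form. The length used for HIST3H2A, 1850 bases, includes its long GENCODE forms, so the levels per kilobase rest on unlike annotations.

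HIST1H2BD, an extended H2B gene (current symbol H2BC5, chr6:26158122-26171349, plus strand), stood at 0.759 and 1.75 CPM in WT, 1.55 and 1.91 CPM in AM, and 1.34 and 0.705 CPM in 6WP. Its 6WP libraries were below AM but overlapped with WT, and the log2 fold change against AM was −0.77 (SE 0.45, adjusted p = 0.247, edgeR). HIST2H2BC, the pseudogene on chromosome 1, stood between 0.536 and 1.21 CPM in the 6 libraries with every pair of groups overlapping. Most of its sequence also occurs elsewhere in the genome, as given above, so its counts are uncertain.

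Among the H2A genes that end at the hairpin, HIST2H2AC (current symbol H2AC20, chr1:149886918-149887411, plus strand) was the most abundant and the most variable across groups. Its level was 1.21 and 1.10 CPM in WT, 3.53 and 3.89 CPM in AM, and 2.78 and 0.599 CPM in 6WP. AM was above both other groups, and the 6WP libraries stood on either side of WT, at 77 and 17 counts. The log2 fold change for AM against WT was 1.68 (SE 0.57, adjusted p = 0.0777, edgeR), and DESeq2, which models the same counts with another estimate of the spread, gave 1.70 with an adjusted p of 0.0252. For 6WP against AM edgeR gave −1.14 (SE 0.54, adjusted p = 0.162) and for 6WP against WT 0.55 (SE 0.60, adjusted p = 0.634). Without the first 6WP library these became −2.63 and −0.96, and without the second −0.45 and 1.24, in fits that leave 6WP without a replicate. The sign against WT thus turned on which 6WP library was used.

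HIST1H2AC, an extended H2A gene (current symbol H2AC6, chr6:26124145-26139116, plus strand), stood at 0.982 and 1.75 CPM in WT, 0.861 and 1.12 CPM in AM, and 1.52 and 1.66 CPM in 6WP. Its 6WP libraries were above AM and within the range of WT, and the log2 fold change against AM was 0.66 (SE 0.35, adjusted p = 0.209, edgeR). In GENCODE its exons overlap those of 1 unnamed gene on the same strand, and those of HIST2H2BC likewise. HIST1H2AG (current symbol H2AC11, chr6:27133043-27133535, plus strand) had 7 counts in each WT library, 14 and 9 in AM and 18 and 12 in 6WP, that is 0.313 and 0.322, 0.603 and 0.265, and 0.651 and 0.423 CPM. It was higher in both 6WP libraries than in WT, with a log2 fold change of 0.75 (SE 0.54, adjusted p = 0.453, edgeR) at counts too low to resolve such a size.

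The H1 members, which encode linker histones bound where DNA enters and leaves the nucleosome, both end at the hairpin. HIST1H1C (current symbol H1-2, chr6:26055740-26056470, minus strand) stood at 3.13 and 2.80 CPM in WT, 3.62 and 2.68 CPM in AM, and 4.88 and 1.97 CPM in 6WP. HIST1H1B (current symbol H1-5, chr6:27866792-27867588, minus strand) had 6 and 10 counts in WT, 28 and 6 in AM, and 13 and 1 in 6WP. For both genes the first 6WP library was above both WT libraries and the second was the lowest of the 6, and the groups overlapped in all 3 comparisons. HIST1H1B gave the largest negative fold change of 6WP against AM, −1.33 on the log2 scale with an SE of 1.03 (adjusted p = 0.378, edgeR), and this turned to 0.49 without the first AM library.

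HIST1H3H, the H3 member (current symbol H3C10, chr6:27810051-27811300, plus strand), stood at 0.714 and 0.735 CPM in WT, 0.431 and 0.736 CPM in AM, and 0.723 and 0.352 CPM in 6WP. Its lowest value was again that of the second 6WP library, and the groups overlapped throughout. The log2 fold changes were −0.43 (SE 0.47) for 6WP against WT, −0.16 (SE 0.47) for 6WP against AM and −0.27 (SE 0.47) for AM against WT. The H4 genes had 236 counts among them, from 11 of the 15 rows, and summed to 1.03 and 2.16 CPM in WT, 2.02 and 1.80 CPM in AM, and 1.27 and 0.811 CPM in 6WP. Their sum was lower in both 6WP libraries than in AM and overlapped with WT.

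**Figure D2:**
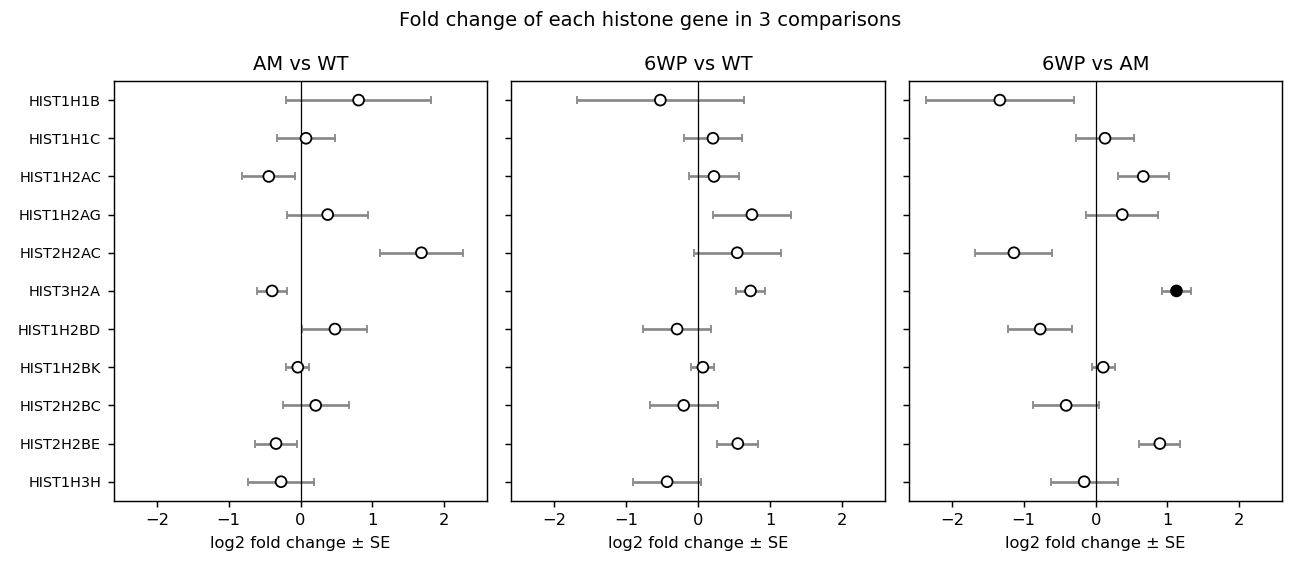
Log2 fold change with its standard error for each of the 11 members in 3 panels, one for each comparison of groups, from the edgeR fit over all 6 libraries. The filled point marks the 1 value with an adjusted p under 0.05, HIST3H2A in 6WP against AM (1.13), and HIST2H2AC lies farthest right in AM against WT (1.68) with a wide error bar (SE 0.57).

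Read by count, few members passed the test, which called a gene at a Benjamini-Hochberg adjusted p under 0.05 over the 14672 genes tested. For 6WP against AM, edgeR called 1 of 11 members, HIST3H2A, higher and 0 lower, where 21.3% of all tested genes were called, 11.7% higher and 9.68% lower. DESeq2 called 2, HIST2H2BE besides HIST3H2A, and had 3 at an unadjusted p under 0.05, these and HIST2H2AC. In edgeR, 2 members had an unadjusted p under 0.05, as had 37.1% of all genes. For 6WP against WT, edgeR and DESeq2 each called 0 members and each had 1, HIST3H2A, at an unadjusted p under 0.05, where edgeR called 3% of all genes, 1.63% higher and 1.37% lower. Over all genes 22.4% were at an unadjusted edgeR p under 0.05, and DESeq2 gave no adjusted p for 3 members in that comparison. For AM against WT, edgeR called 0 members with 1 (HIST2H2AC) at an unadjusted p under 0.05, DESeq2 called that 1, and edgeR called 17.7% of all genes, 7.74% higher and 9.93% lower, with 35.3% at an unadjusted p under 0.05. In each comparison the share of members called by edgeR lay below the percentage for the whole table, and over 11 genes nothing is read from that. The share of all genes called by DESeq2 is not given. Its counts here and for the gene lists below therefore stand without a background, and nothing is read from them.

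Separation of the replicates gave the same picture. In 6WP against AM, 5 of 11 members had groups that did not overlap, 3 higher in 6WP (HIST1H2AC, HIST2H2BE and HIST3H2A) and 2 lower (HIST1H2BD and HIST2H2AC), against 62.3% of all tested genes (33.8% higher and 28.5% lower). In 6WP against WT there were 2, HIST1H2AG and HIST3H2A, both higher, against 50.7% (25.5% higher and 25.2% lower). HIST1H2AG, just inside the minimum, reached it in part through its 6WP counts. In AM against WT there were 3, HIST2H2AC higher and HIST2H2BE and HIST3H2A lower, against 73.8% (36.9% in each direction). The median log2 fold change over the members was 0.21 for 6WP against WT, 0.11 for 6WP against AM and 0.08 for AM against WT, beside 0.01, 0.05 and −0.00 over all tested genes. These comparisons share their libraries in pairs and are not independent of each other.

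By class, the median log2 fold change of 6WP against AM was 0.52 over the 4 H2A members, −0.15 over the 4 H2B members and −0.60 over the 2 H1 members, and the 1 H3 member gave −0.16. Against WT the same classes gave 0.64, −0.07, −0.16 and −0.43. Each class held members of both signs against AM except H3, and the H2A median lay between −1.14 for HIST2H2AC and 1.13 for HIST3H2A. Summed over all 18 H2A rows, the level was 7.99 and 10.0 CPM in WT, 10.7 and 11.4 CPM in AM, and 15.9 and 11.5 CPM in 6WP. The groups did not overlap, but the second AM and second 6WP libraries were almost equal, at 388 and 327 counts. The 14 H2A rows under the minimum went the other way, at 1.85 and 1.91 CPM in AM and 1.63 and 0.388 CPM in 6WP. The H3 rows summed to 2.14 and 2.30 CPM in WT, 1.72 and 1.91 CPM in AM, and 1.88 and 0.987 CPM in 6WP. Both AM and both 6WP libraries were below WT, and 6WP overlapped with AM. The sums of the H1 and H2B rows overlapped between all groups.

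HIST2H2BE and HIST2H2AC, neighbours whose levels differed in opposite directions between 6WP and AM, lie head to head on chromosome 1 with starts 236 bases apart. The whole stretch between the starts is shown since it lies upstream of both genes. It is chr1:149886683-149886917 of GRCh38, on the plus strand, with HIST2H2BE read leftwards from its left end and HIST2H2AC rightwards from its right end, and capitals mark the letters TATAAA of the TATA box, the pentamer CCAAT and the octamer ATGCAAAT on either strand.
HIST2H2BE-HIST2H2AC: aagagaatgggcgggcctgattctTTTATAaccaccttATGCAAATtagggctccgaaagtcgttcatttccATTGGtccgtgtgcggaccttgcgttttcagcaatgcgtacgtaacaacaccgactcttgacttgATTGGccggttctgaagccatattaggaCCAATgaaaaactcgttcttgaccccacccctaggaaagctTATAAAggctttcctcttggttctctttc
A TATAAA lay 25 bases from the start of HIST2H2BE and another 24 bases from the start of HIST2H2AC, each on the strand of its gene. There were 3 CCAAT motifs between them, and 1 ATGCAAAT, the octamer that OCT1 binds, 39 bases from the start of HIST2H2BE and 190 bases from that of HIST2H2AC. In the RefSeq promoter windows of 250 bases before to 50 after the start, on either strand, TATAAA was found in 7 of the 10 members with a window and in 12% of 27305 promoters, CCAAT in 10 of 10 and in 35.7%, and ATGCAAAT in 5 of 10 and in 1.8%. Matches to these letters are a description of the sequence and do not show binding.

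The share of the pair's counts that came from HIST2H2AC was 12.7% and 9.41% in WT, 30.8% and 35.6% in AM, and 22.3% and 3.22% in 6WP. The exact 95% binomial intervals were 8.52 to 17.9% and 6.12 to 13.7% in WT, 25.3 to 36.8% and 30.7 to 40.7% in AM, and 18.0 to 27.01% and 1.89 to 5.11% in 6WP. The replicates of WT and of AM agree within these intervals, and the 6WP libraries did not, the first lying between WT and AM and the second below every other library. The balance between the short gene ending at the hairpin and the long extended gene thus differed more between the replicates of 6WP than between those of WT or those of AM.

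**Figure D3:**
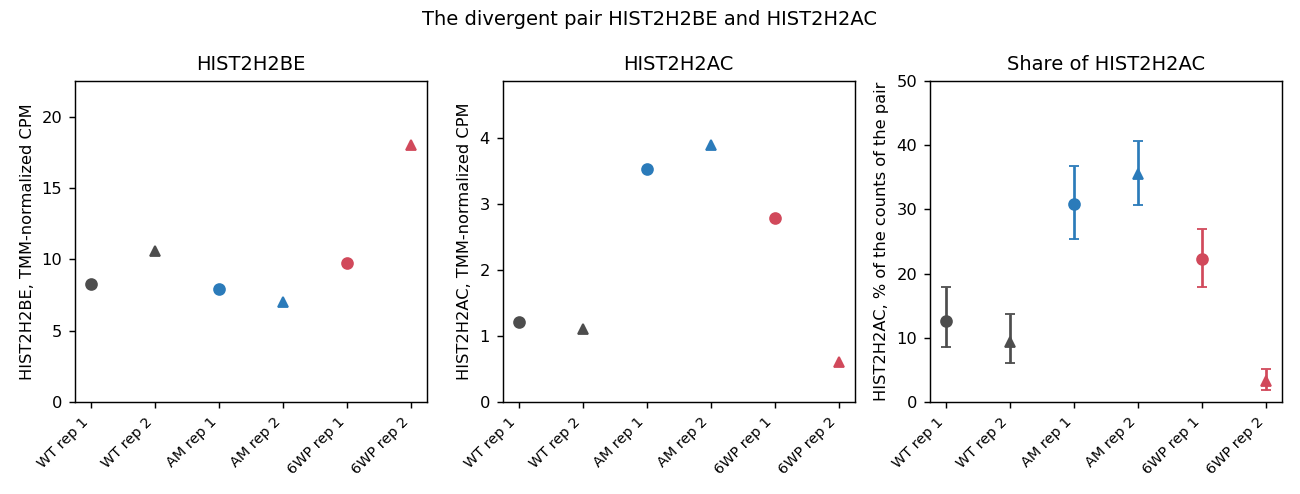
TMM-normalized CPM of HIST2H2BE (left), of HIST2H2AC (middle), and the percentage of the pair's counts from HIST2H2AC with its exact 95% binomial interval (right), for each of the 6 libraries. The share is highest in AM (30.8% and 35.6%) and lowest in the second 6WP library (3.22%), where HIST2H2BE is highest (18.0 CPM).

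The rows were also summed by annotated end. The 49 rows ending at the hairpin summed to 7.63 and 9.46 CPM in WT, 14.9 and 11.98 CPM in AM, and 13.6 and 4.72 CPM in 6WP. AM was above WT without overlap, and the first 6WP library lay within the AM range while the second was the lowest of all, 2.87 times below the first. Without HIST2H2AC the other 48 summed to 6.43 and 8.36 CPM in WT, 11.4 and 8.10 CPM in AM, and 10.8 and 4.12 CPM in 6WP, so that AM and WT overlapped while the second 6WP library was still the lowest. The 16 extended rows summed to 28.3 and 35.6 CPM in WT, 27.7 and 28.4 CPM in AM, and 35.0 and 44.3 CPM in 6WP. Without HIST2H2BE the extended rows summed to 20.0 and 24.99 CPM in WT, 19.8 and 21.3 CPM in AM, and 25.3 and 26.3 CPM in 6WP. Both 6WP libraries were then above all controls, and the second was still the highest but closer to the first. Of the extended members, HIST3H2A, HIST1H2BD and HIST1H3H were higher in the first 6WP library than in the second. HIST1H2AC, HIST1H2BK and HIST2H2BE were higher in the second. The 10 extended rows under the minimum summed to 1.05 and 1.13 CPM in 6WP. The 62 rows under the minimum, none of them a member, were also lower in the second 6WP library, at 6.55 CPM (exact 95% Poisson interval 5.63 to 7.57) in the first 6WP library and 3.07 CPM (2.46 to 3.78) in the second. Their sums were 4.60 and 7.90 CPM in WT and 8.70 and 7.24 CPM in AM, both AM values being above both 6WP values.

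Genes for DNA replication also stood highest in AM and lowest in the second 6WP library. The 45 S-phase genes summed to 5068 and 4640 CPM in WT, 7519 and 7955 CPM in AM, and 4338 and 2855 CPM in 6WP. Of the 45, edgeR called 40 lower and 0 higher in 6WP relative to AM (median log2 fold change −1.07, with 9.68% of all genes called lower), 21 higher and 0 lower in AM relative to WT (0.63, with 7.74% of all genes called higher), and 1 lower, MCM4, and 0 higher in 6WP relative to WT (−0.38), where 22 were lower at an unadjusted p under 0.05 and DESeq2 called 10 lower. In 6WP relative to WT, edgeR called 1.37% of all genes lower, and 22.4% had an unadjusted p under 0.05 in either direction. Within 6WP, 44 of the 45 S-phase genes were higher in the first library than in the second. The median was 0.61 on the log2 scale, beside 0.01 over all tested genes. CDC6, which loads the replicative helicase, fell by 1.96 (SE 0.18, adjusted p = 0.00202, edgeR) in 6WP relative to AM and rose by 1.11 (SE 0.18, adjusted p = 0.00876) in AM relative to WT. POLE2, a subunit of DNA polymerase epsilon, fell by 1.43 (SE 0.14, adjusted p = 0.00203) and rose by 1.07 (SE 0.14, adjusted p = 0.00484) in the same edgeR comparisons. MCM4, a subunit of that helicase, fell by 0.72 (SE 0.15, adjusted p = 0.0464, edgeR) in 6WP relative to WT. The part of the S-phase genes in the histone values was not tested.

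RNAs that carry no poly(A) tail also differed between the 6WP libraries. Of 21 such small RNAs and noncoding RNAs listed, 9 were abundant enough to test, and the 20 present in the table summed to 27.9 and 58.3 CPM in WT, 26.9 and 23.3 CPM in AM, and 43.8 and 17.4 CPM in 6WP. All 9 tested RNAs were higher in the first 6WP library than in the second, by a median of 1.22 on the log2 scale. In WT the order was the other way, 2 of 9 being higher in the first library and the median of the first over the second being −1.77. The 62 histone rows under the minimum were 1.72 times higher in the second WT library. Of these, the 10 extended rows were 2.02 times higher and the 45 rows ending at the hairpin 1.75 times. The 4 members ending at the hairpin were not higher there, at 4.91 and 4.69 CPM in WT. Among them HIST2H2AC differed between the WT libraries by 1.09 times. None of the listed RNAs without a poly(A) tail was called in any comparison by edgeR or DESeq2. In each of the 3 comparisons 1 was lower at an unadjusted edgeR p under 0.05. The share of all genes at such a p, in either direction, was 22.4% for 6WP against WT. It was 37.1% for 6WP against AM and 35.3% for AM against WT. The list's median log2 fold changes were −0.52 for 6WP against WT, −0.41 against AM and −0.22 for AM against WT. RN7SL2, an RNA of the signal recognition particle, had a log2 fold change of −0.98 (SE 0.36, adjusted p = 0.161, edgeR) in 6WP against WT. The part of RNA selection and RNA quality in the difference between the 6WP libraries was not tested.

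**Figure D4:**
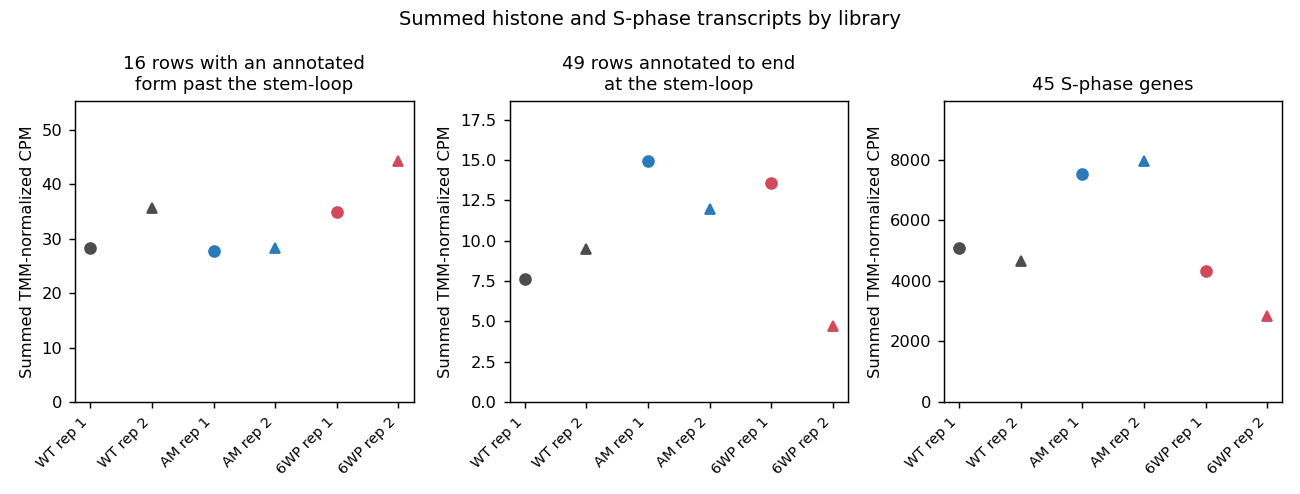
Summed TMM-normalized CPM in each of the 6 libraries for the extended histone rows (left), the histone rows annotated to end at the stem-loop (middle) and the S-phase genes (right), with circles for the first and triangles for the second replicate. The second 6WP library is lowest for the 49 rows ending at the stem-loop (4.72 CPM) and for the S-phase genes (2855 CPM), and highest for the 16 extended rows (44.3 CPM), of which HIST2H2BE gave 18.0 CPM.

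Of the proteins that make histone mRNA, SLBP, which binds the hairpin, stood at 154 and 134 CPM in WT, 205 and 217 CPM in AM, and 150 and 106 CPM in 6WP. It fell by 0.72 on the log2 scale (SE 0.17, adjusted p = 0.0213, edgeR) in 6WP relative to AM, with no overlap, and the values against WT were −0.17 (adjusted p = 0.575) for 6WP and 0.55 (adjusted p = 0.0551) for AM. NPAT, the activator of the clusters, stood at 31.5 and 29.5 CPM in WT, 31.3 and 29.4 CPM in AM, and 22.9 and 22.8 CPM in 6WP. NPAT fell by 0.41 (SE 0.12, adjusted p = 0.0432, edgeR) relative to AM, with −0.42 (SE 0.12, adjusted p = 0.0973) relative to WT and −0.01 (adjusted p = 0.969) between AM and WT. Unlike SLBP, its 6WP libraries were almost equal and both were below all 4 controls.

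Over the 23 genes listed for histone mRNA processing, edgeR called 0 higher and 6 lower in 6WP relative to AM, 3 higher and 1 lower in AM relative to WT, and none in 6WP relative to WT, where 1 was higher and 3 were lower at an unadjusted p under 0.05 and DESeq2 called 1 higher and 1 lower. The shares of all genes called lower in 6WP and higher in AM were the 9.68% and 7.74% given above. In 6WP against WT, 22.4% of all genes had an unadjusted edgeR p under 0.05. The medians over the list were −0.19 for 6WP against AM, 0.12 for AM against WT and −0.11 for 6WP against WT. SRRT, the ARS2 protein that links the cap to hairpin processing, fell by 0.78 (SE 0.10, adjusted p = 0.00379, edgeR) in 6WP relative to AM and rose by 0.39 (SE 0.10, adjusted p = 0.0322) in AM relative to WT. CPSF3, the endonuclease that makes the cut, fell by 0.71 (SE 0.11, adjusted p = 0.0065, edgeR) and rose by 0.48 (SE 0.11, adjusted p = 0.023) in the same comparisons. ZNF473, a zinc finger protein that binds the U7 particle, stood at 71.9 and 73.3 CPM in WT, 80.9 and 81.8 CPM in AM, and 90.9 and 115 CPM in 6WP, with a log2 fold change of 0.51 (SE 0.13, adjusted p = 0.0779, edgeR) against WT. In the same comparison SRRT went the other way, at −0.39 (SE 0.10, adjusted p = 0.077, edgeR), with the smallest p of the list.

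Histone chaperones carry new histones to DNA. Of the 21 listed, edgeR called 8 lower and 0 higher in 6WP relative to AM, 6 higher and 0 lower in AM relative to WT, and 0 in 6WP relative to WT, where 1 was higher and 4 were lower at an unadjusted p under 0.05 and DESeq2 called 0. Beside the same 9.68% and 7.74% of all genes, the list's median log2 fold changes were −0.30 for 6WP against AM, 0.27 for AM against WT and −0.11 for 6WP against WT. In 6WP against WT, 22.4% of all genes had an unadjusted edgeR p under 0.05. NASP, a chaperone of H3-H4 and linker histones, fell by 0.95 (SE 0.10, adjusted p = 0.00232, edgeR) in 6WP relative to AM and rose by 0.70 (SE 0.10, adjusted p = 0.00673) in AM relative to WT. CHAF1B and CHAF1A, subunits of chromatin assembly factor 1, fell by 1.08 (SE 0.16, adjusted p = 0.00581, edgeR) and 0.76 (SE 0.12, adjusted p = 0.00672) in 6WP relative to AM. For 6WP against WT, edgeR gave −0.52 (SE 0.16, adjusted p = 0.111) for CHAF1B and −0.26 (SE 0.10, adjusted p = 0.189) for NASP. The S-phase list also holds MCM2, CHAF1A and CHAF1B of the chaperones and SLBP, so that these lists are not separate observations.

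The replacement histones, variants encoded outside the clusters and for the most part by polyadenylated mRNAs, were far more abundant as measured. The 12 listed genes summed to 2816 and 2680 CPM in WT, 3298 and 3503 CPM in AM, and 4031 and 2525 CPM in 6WP. The sum of the second 6WP library was the lowest here too. Of 10 tested genes, edgeR called 2 higher and 1 lower in 6WP relative to AM, 1 higher and 1 lower in AM relative to WT, and 0 in 6WP relative to WT, where 1 was higher at an unadjusted p under 0.05 and DESeq2 called 1 higher. The whole table had 21.3%, 17.7% and 3% of genes called in these comparisons, and the list's medians were −0.18, 0.20 and 0.14. In 6WP relative to WT, 22.4% of all genes had an unadjusted edgeR p under 0.05. H1F0, the linker histone known from cells that stop dividing, stood at 414 and 446 CPM in WT, 380 and 407 CPM in AM, and 956 and 536 CPM in 6WP. It rose by 0.92 (SE 0.23, adjusted p = 0.0286, edgeR) relative to AM, and relative to WT the value was 0.79 (SE 0.23, adjusted p = 0.104). H1F0 was thus higher in both 6WP libraries than in all 4 controls, but differed between them by more than the controls did.

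H2AFY2 and H2AFY, which encode the macroH2A proteins, went in opposite directions. H2AFY2 stood at 30.4 and 34.0 CPM in WT, 18.3 and 20.3 CPM in AM, and 31.2 and 31.6 CPM in 6WP, so it fell by 0.73 (SE 0.13, adjusted p = 0.0107, edgeR) in AM relative to WT and rose by 0.70 (SE 0.13, adjusted p = 0.0104) in 6WP relative to AM. H2AFY rose by 0.46 (SE 0.13, adjusted p = 0.0417, edgeR) in AM relative to WT and fell by 0.42 (SE 0.13, adjusted p = 0.0468) in 6WP relative to AM. H3F3B, which encodes H3.3, had log2 fold changes of 0.16, 0.00 and 0.16 in the 3 comparisons, each with an SE of 0.12. H2AFJ was at 0 counts in all 6 libraries.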

How the data were processed

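RNA from 6 samples of 22Rv1 cells was sequenced as 100-base single-end reads after a TruSeq stranded preparation. The authors deposited raw counts per gene, and the submitters' processing notes name STAR 2.5.3a, featureCounts 1.5.3 (Subread), StringTie 1.3.3, edgeR 3.22.3, R 3.5.0 and hg38. The annotation, the strand setting, the treatment of multimapping reads and the RNA selection are not given in the sources used here, so reads of overlapping antisense genes may not have been separated.

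The deposited counts of all 6 libraries were fitted together with edgeR 4.0.16 (R 4.3.3, TMM, filterByExpr, quasi-likelihood F test, two-sided), leaving 3 residual degrees of freedom, with Benjamini-Hochberg adjustment over 14672 genes and a threshold of 0.05. The common dispersion was 0.0174. The script was tested on simulated data. DESeq2 1.42.0, other scaling, other filters, fits of only 2 groups and leaving out each library were alternatives.

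Symbols were matched through RefSeq synonyms to GENCODE v44, and promoter windows were those of RefSeq on GRCh38. Levels per kilobase use the union of annotated exons.

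The members and gene lists were chosen with earlier results of these data known. Values are given for members with an adjusted p under 0.05, for the 2 most abundant per kilobase in each class, and for the 3 largest rises and falls per comparison. Of each list, they are given for some of the members among the 2 with the smallest p, not in every comparison. SLBP and NPAT are always given. Values of other members were added after they were seen.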

Additional observations from a re-analysis of the deposited data

How the results depend on the processing

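The count of members called was 1 for 6WP against AM. It was 0 without either AM library, and 5 without the first 6WP library (HIST2H2BE and HIST3H2A higher, HIST1H1B, HIST1H2BD and HIST2H2AC lower). The count of members called was 2 with no filter, with DESeq2 and with the replicate block, which each added HIST2H2BE. The share of all genes called in each alternative is not given, so nothing is read from these counts. For 6WP against WT the count was 0, also in the alternatives other than leaving out a library. For AM against WT the count was 0, and it was 1 (HIST2H2AC) with no filter, with DESeq2 and with only the 2 groups compared. Each fit without a library leaves its group without a replicate, so no adjusted p or count called from such a fit measures the spread within that group. The cause of the changes between fits was not tested.

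HIST3H2A differed between 6WP and AM by 1.05 to 1.20 on the log2 scale in every alternative run, with adjusted p from 0.000244 to 0.0966. Over the same alternatives the adjusted p of HIST2H2BE in that comparison ran from 2.27e-05 to 0.265, and that of HIST2H2AC in AM against WT from 2.81e-05 to 0.310. The median over the members moved without the first 6WP library, to −0.66 against AM and −0.54 against WT. Over all tested genes, the deviations of same-numbered replicates from their group means were hardly correlated, at 0.087 (6WP and WT), −0.021 (6WP and AM) and 0.04 (AM and WT). With 2 libraries per group, this cannot show whether the samples were grown or processed in pairs. With the replicate block the members called were 0 for 6WP against WT and 0 for AM against WT.

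At 10 or more counts in every library only 9 members were tested. HIST1H1B and HIST1H2AG rest on 1 to 28 counts per library, and rows under the minimum carry too few counts to compare singly.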
